A study of Rattus norvegicus with 7 samples.

Results

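The rat genome models examined here are 265 of the 29630 gene models in the deposited count files. They lie on chromosome 3, outside the block of type 1 vomeronasal receptor (V1R) models that the authors placed ahead of the genome-ordered annotation, and have 1 exon of 900 to 990 bases with a length divisible by 3. That is the size and structure of an olfactory receptor coding model, but their class is inferred from structure alone. The files give these models as Ensembl identifiers without gene names, and 0 of the 265 identifiers could be matched to a name or to a reference sequence, so that models are called by identifier and position (RGSC3.4) and no sequence is shown.

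Olfactory receptors are G protein-coupled receptors for odorants, each encoded in a single coding exon, and their genes stand in large tandem clusters on many mammalian chromosomes. A sensory neuron of the main olfactory epithelium typically expresses a single such gene. Vomeronasal sensory neurons mostly use V1R and V2R receptors instead, and transcripts of some olfactory receptors are also known from vomeronasal tissue.

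RNA came from the vomeronasal epithelium of 7 male LEW/Crl (Lewis) rats aged 8 weeks, 1 library per animal, flushed of blood with heparin before dissection. All 7 form a single group without treatment or genotype contrast, so that models were compared with each other inside each animal and errors are the spread over animals. The libraries held 64085829 to 74924005 estimated counts, so that 10 counts stood for 0.133 to 0.156 CPM (counts per 1000000 counts of the library). The 10 most abundant models took 40.4% of all counts in rat 7, the lowest share, against 44.6% to 48.0% elsewhere. For the models examined here it was rat 5 that stood apart, and sums are therefore given with and without it.

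The 265 models fell into 3 position clusters and 5 scattered models. Clusters were separated by gaps of over 1 Mb. The proximal cluster held 30 models (chr3:15472683-16847028), 25 of them on the plus strand. The central cluster held 191 models (chr3:68577904-74748062), 122 of them on the minus strand. The distal cluster held 39 models (chr3:96795343-98015138), 22 of them on the minus strand. Neighbours were close, with a median distance to the nearest other model of 31.3 kb, 16.4 kb and 18.8 kb in the proximal, central and distal cluster. Lengths ran from 909 to 990 bases with a median of 939, the most frequent length, which 51 models shared. The nearest models outside the length limits were ENSRNOG00000024915 at 840 bases (1.63 CPM) and a pair at 993 bases, ENSRNOG00000032434 (0.00800 CPM) and ENSRNOG00000032321 (no count).

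Few of these models were transcribed at a measurable level. Only 8 of 265 (3.02%) were detected, that is, had at least 10 counts in at least 4 of the 7 rats, whereas 56.3% of all models in the files and 17.7% of all single-exon models reached that minimum. Inside the clusters 5 of 260 models were detected, with 2 of 30 in the proximal, 3 of 191 in the central and 0 of 39 in the distal cluster. Models of the same length and structure in position clusters on the other chromosomes were detected in 8.17% of 796 cases, and those outside clusters in 38.7% of 93. With a minimum of 3 counts in 4 rats, 26 of the 265 models would be detected. The shares above hold for 10 counts and cannot be set against this number, for which no share over all models is given. In the distal cluster the highest model was ENSRNOG00000032021, at 6, 4, 8, 12, 16, 5 and 4 counts in rats 1 to 7.

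Of all 29630 models 6150 had no count in any rat, as had 182 of the 796 clustered models of this structure on other chromosomes. Among the 265 models examined here 91 had none. That allows each of them up to 0.00622 CPM over the 7 rats (3 counts of the summed total, counting error only). A further 166 clustered models had counts but stayed below the detection minimum, 82 of which had a total of at most 3 counts over all rats, and 23 clustered models had a count in every rat. The 265 models together took 12.3 ± 3.23 CPM (SD, n = 7), or 11.3 ± 2.18 CPM (SD, n = 6) without rat 5. The 3 detected scattered models made up 48.5% of this sum. Within the 260 clustered models, which together had 6.32 ± 2.82 CPM (SD, n = 7), or 5.35 ± 1.27 CPM (SD, n = 6) without rat 5, the 5 detected ones made up 50.3%.

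Of the 5 scattered models 3 were detected, all of them on the minus strand near the far end of the chromosome and with whole counts in every rat. ENSRNOG00000016037 (chr3:151117746-151118717), the highest of all 265, had 156, 272, 204, 195, 240, 214 and 302 counts in rats 1 to 7, which is 3.28 ± 0.731 CPM (SD, n = 7). ENSRNOG00000008529 (chr3:143272757-143273740) had 71, 133, 92, 82, 104, 126 and 125 counts, or 1.52 ± 0.347 CPM. ENSRNOG00000007514 (chr3:142714911-142715855) had 63, 102, 84, 66, 72, 73 and 95 counts, or 1.15 ± 0.192 CPM. All 3 had their highest CPM in rat 7, as had 43.6% of all models with a count. Their coefficient of variation (CV) between rats was 22.3%, 22.9% and 16.7%. ENSRNOG00000016037 stands 7844 kb from the nearest other model of this structure and the other pair 557 kb from each other, so that their class rests on exon number and length without a cluster around them. In bulk tissue, a lower level from fewer cells and one from less RNA per cell cannot be told apart. The other two scattered models, ENSRNOG00000027510 and ENSRNOG00000042486, had no count in any rat.

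In the central cluster 1 model stood out against its surroundings. ENSRNOG00000030946 (chr3:71532121-71533056, plus strand) had 110, 153, 146, 80, 123, 63 and 103 counts in rats 1 to 7, all whole, or 1.598 ± 0.397 CPM (SD, n = 7). Rat 6 was lowest and rat 2 highest, with a 2.15-fold range. Its 778 counts in all compare with 9 counts summed over its 10 nearest models, 5 on each side (chr3:71353020-71629237), 4 of which had none and the highest of which had 3. It alone made up 32.6% of the mean CPM of the central cluster.

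The other detected pair of the central cluster lay close together near its far end and behaved differently. ENSRNOG00000006771 (chr3:74444721-74445647, minus strand) had 16.5, 32, 57.5, 40, 168, 11 and 58.5 counts in rats 1 to 7, a mean of 0.786 ± 0.753 CPM (SD, n = 7) with a 14.4-fold range. Rat 5 was far above all others, at 2.38 CPM, and rat 6 was lowest at 0.166 CPM. ENSRNOG00000006819 (chr3:74499825-74500733, minus strand) had 3.5, 14, 21.5, 12, 39, 10 and 15.5 counts, or 0.236 ± 0.158 CPM, and was likewise highest in rat 5. Both include fractional counts from multimapping reads, and their own levels are uncertain for that reason. Another model of that stretch, ENSRNOG00000034114 (chr3:74411887-74412816), stayed below the detection minimum at 2.33, 1, 11.5, 10, 25.83, 2 and 6.17 counts, highest in rat 5 too and again with shared reads.

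The 2 detected models of the proximal cluster were low. ENSRNOG00000029701 (chr3:15828690-15829628, plus strand) had 11, 35, 12, 20, 24, 29 and 34 counts in rats 1 to 7, all whole, or 0.343 ± 0.143 CPM (SD, n = 7). ENSRNOG00000007986 (chr3:16610435-16611388, minus strand) had 13, 17, 20, 13.5, 18, 11 and 15 counts, part of them shared, or 0.222 ± 0.0349 CPM. In neither was rat 5 the highest, which were rat 7 and rat 3. ENSRNOG00000031646 (chr3:16310633-16311571) followed just below the minimum at 8, 12, 10, 6, 8, 6 and 12 counts, and ENSRNOG00000029743 of the central cluster (chr3:69670166-69671110) at 14, 6, 8, 7, 6, 4 and 8 counts.

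**Figure D1:**
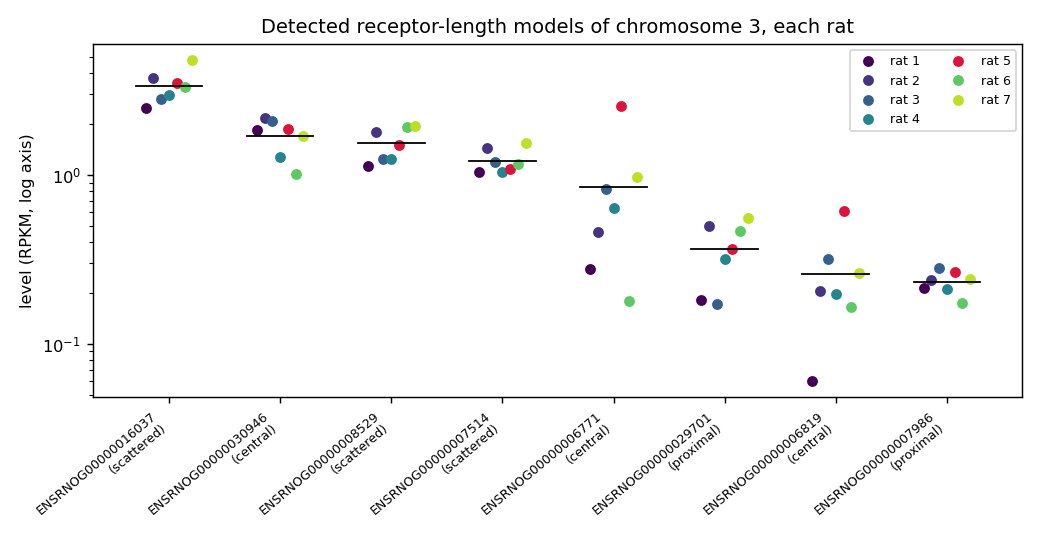
Level of the 8 detected models in RPKM (log axis) in each of the 7 rats, with the mean as a bar and rats by colour, ordered by mean. ENSRNOG00000006771 and ENSRNOG00000006819 spread most between rats and have their highest value in rat 5 (red).

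Per length, the order of the detected models ran from 3.38 RPKM (CPM per kilobase of model length) for ENSRNOG00000016037 over 1.71 for ENSRNOG00000030946, 1.54 for ENSRNOG00000008529, 1.22 for ENSRNOG00000007514 and 0.848 for ENSRNOG00000006771. ENSRNOG00000029701 (0.365), ENSRNOG00000006819 (0.259) and ENSRNOG00000007986 (0.232 RPKM) closed it. Of the 7 steps between neighbours in this order, only those from ENSRNOG00000016037 to ENSRNOG00000030946 and from ENSRNOG00000008529 to ENSRNOG00000007514 had the same sign in 7 of 7 rats. Their exact sign-flip permutation p over rats was 0.0156, two-sided, and 0.0547 after Benjamini-Hochberg adjustment over the 7 steps, so that neither passed. Since 0.0156 is the smallest p that 7 rats can give, neither could have passed given the other 5 steps. The order was taken from these same means, so these p-values do not test it. The other 5 steps did not differ beyond the spread between rats (exact permutation p = 0.0938 to 0.75).

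Variation between rats was described by the biological coefficient of variation, the square root of edgeR's tagwise dispersion. Its median over the 8 detected models was 23.2% against 11.9% over all 16670 detected models. It ranged from 17.5% for ENSRNOG00000007986 to 69.4% for ENSRNOG00000006771, a value above that of 99.3% of all detected models. The 8 models had means of 0.222 to 3.28 CPM, and all detected models were not matched to them for level. The plain CV of CPM was 95.8% for ENSRNOG00000006771, 66.9% for ENSRNOG00000006819 and 15.7% for ENSRNOG00000007986. Over the 4917 detected models of 0.1 to 4 CPM in the files the median CV was 19.5%, with a range of 6.15% to 82.6% once 2.5% of models were left out at each end.

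**Figure D2:**
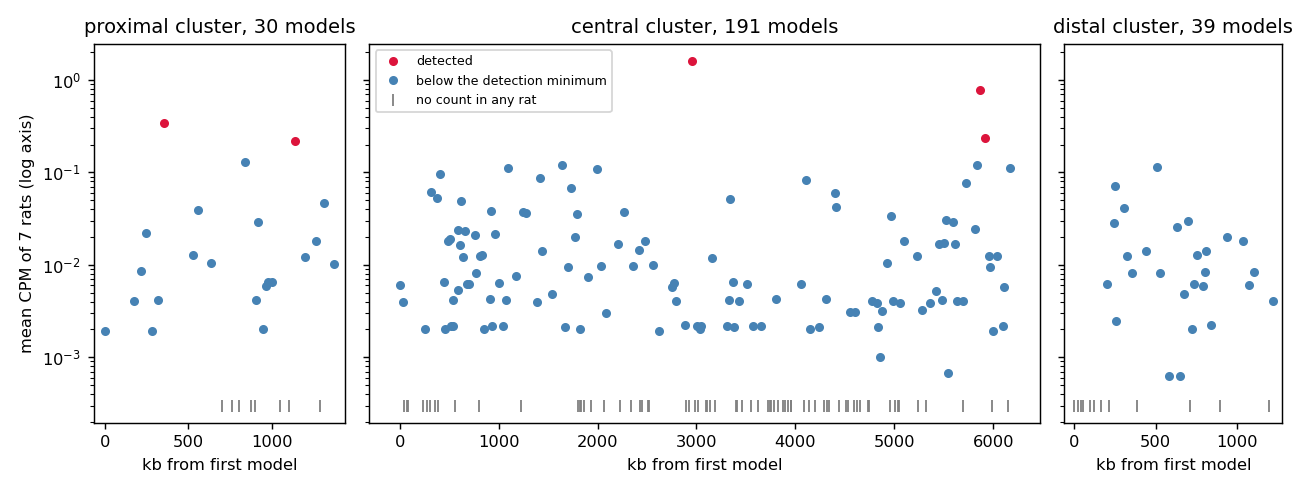
Mean CPM over 7 rats (log axis) of every clustered model against its distance in kb from the first model of its cluster. Red points are detected, blue points had counts below the minimum, and grey ticks, drawn at an arbitrary height below the lowest point, had no count in any rat. The 5 detected models are few among many low or silent ones, and the distal cluster has 0.

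Counts were spread unevenly along the clusters. In consecutive windows of 500 kb from the start of the central cluster, the window that holds ENSRNOG00000030946 (chr3:71084364-71563943, 12 models) had 33.2% of the cluster's mean CPM. The window around ENSRNOG00000006771 (chr3:74083054-74571848, 16 models) had 27.9%. The window at chr3:72089176-72539451, with 16 models, had 0.302%, and 12 of its models had no count in any rat. The longest run of adjacent models without any count was 6 in the central cluster (chr3:72401404-72539451) and 3 in the proximal one. In the distal cluster the first 7 models (chr3:96795343-96959656) had none.

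Other gene models lay between them, 6 in the proximal, 72 in the central and 8 in the distal span. Of these, 3, 41 and 3 had several exons and a summed length of 900 to 990 bases, and 0 of them were detected. The non-members with the highest level were ENSRNOG00000033172 in the central span (chr3:71261797-71262964, 2 exons) at 179 ± 13.6 CPM, ENSRNOG00000007816 in the proximal span (chr3:15670223-15671559, 4 exons) at 5.76 ± 1.04 CPM and ENSRNOG00000042991 in the distal span (chr3:97062895-97064023, 2 exons) at 0.0722 ± 0.0395 CPM (SD, n = 7 each). All 3 had fractional counts from shared reads. Only 2 members overlapped another model, ENSRNOG00000033728 and ENSRNOG00000033104, both inside a model on the opposite strand, and both were at most at 0.00313 CPM.

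Rat 5 had more of the clustered models' reads than any other rat in the central and distal clusters. The central cluster summed to 3.38, 4.35, 5.14, 4.04, 9.93, 2.37 and 5.16 CPM in rats 1 to 7. Rat 5 lay above all others there, at 2.37 times their median. The distal cluster summed to 0.213, 0.327, 0.416, 0.527, 1.13, 0.274 and 0.447 CPM, with rat 5 again above all others, at 3.04 times their median. Without rat 5 the mean fell from 4.91 ± 2.42 (SD, n = 7) to 4.07 ± 1.08 CPM (SD, n = 6) in the central cluster and from 0.476 ± 0.307 to 0.367 ± 0.117 CPM in the distal one. The proximal cluster summed to 0.687, 1.18, 0.843, 0.772, 1.09, 0.830 and 1.16 CPM, and rat 5 lay between the others. The scattered models summed to 4.53, 6.77, 5.09, 5.09, 5.90, 6.23 and 8.05 CPM, with rat 5 again between the others. Whether rat 5 departs more in one cluster than in another was not tested, since a single animal gives no spread.

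**Figure D3:**
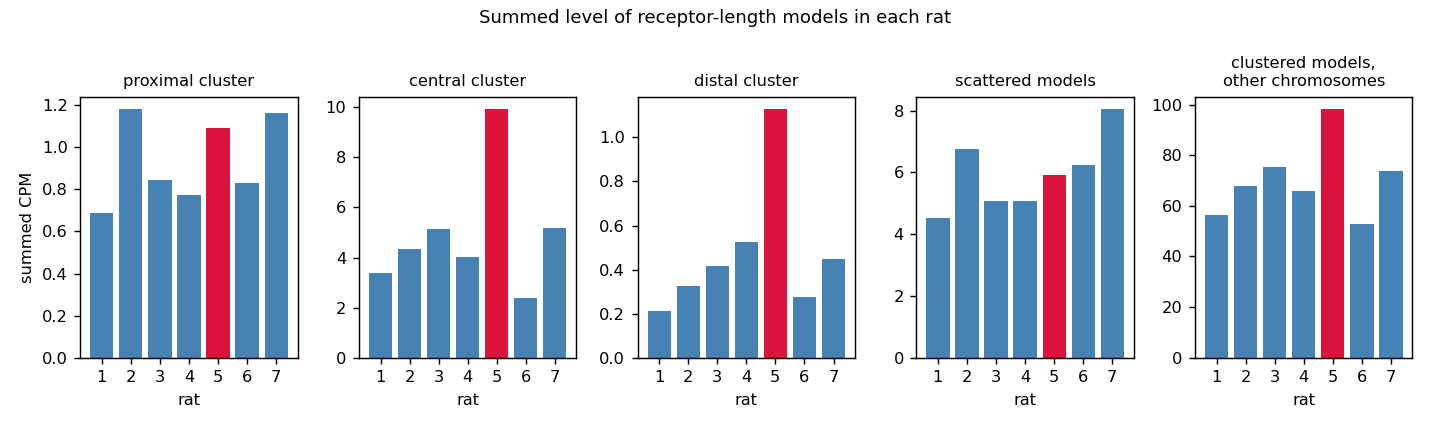
Summed CPM in each rat for the 3 clusters, the scattered models and the clustered receptor-length models of all other chromosomes, each panel with its own axis from 0. Rat 5 (red) is highest in the central cluster (9.93 CPM), in the distal cluster (1.13 CPM) and on the other chromosomes (98.2 CPM), but not in the proximal cluster or among scattered models.

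The excess in rat 5 was shared by many models of the central and distal clusters. Of the 171 clustered models with a count, 68 (39.8%) had their highest CPM in rat 5, against 11 to 27 in each other rat. These were 50 of 122 in the central and 14 of 27 in the distal cluster, but only 4 of 22 in the proximal one. There rat 3 had more, with 5. Over all 23480 models with a count, 8.93% were highest in rat 5. Among the 44 clustered models with a total of 10 to 200 counts, 26 (59.1%) were highest in rat 5 and 0 in rat 6. Of the 3598 models of other structure with a total of 10 to 200 counts, 13.4% were highest in rat 5, and of the 238 clustered receptor-length models on other chromosomes with that total, 39.9%. In each of these sets the total includes the counts of rat 5, so that models could enter through rat 5 itself. ENSRNOG00000033816, for example, had 7 of its 10 counts there. In rat 5, 20 of the 265 models had at least 10 counts, against 8 to 11 in the other rats, and 111 clustered models had a count against 62 to 84. Counts in a single rat alone were found for 18 models in rat 5 and for 2 to 8 models in each other rat. These last comparisons between rats are given without a share over all models. All counts of this paragraph were made after rat 5 had been seen to stand apart, and with other scalings the 68 became 71.

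Several models below the detection minimum show the pattern. ENSRNOG00000032113 (chr3:70573143-70574081) had 3, 5, 6, 8, 29, 1 and 2 counts in rats 1 to 7, all whole. ENSRNOG00000030617 (chr3:70216821-70217786) had 4.33, 5.33, 5.33, 10, 23.5, 5.33 and 4.67 counts, with shared reads. ENSRNOG00000032334, the last model of the central cluster (chr3:74747133-74748062), went another way, with 5.5, 4, 9, 0, 14, 3 and 18 counts and its highest value in rat 7. ENSRNOG00000030946, the highest member of the central cluster, had 1.75 CPM in rat 5 against a median of 1.65 CPM in the others. Leaving it out therefore could not remove the excess. Without it the cluster summed to 8.18 CPM in rat 5 against 1.42 to 3.57 CPM for the remaining animals. ENSRNOG00000006771, at 2.38 CPM in rat 5 against a median of 0.510 CPM in the others, was not left out. The proximal cluster without its highest model, ENSRNOG00000029701, was highest in rat 5 by a small margin, at 0.752 CPM against 0.392 to 0.714 CPM. Rat 2 was next, at 0.714 CPM. Of the 22 proximal models with a count, only 4 were highest in rat 5, against 5 in rat 3 and 4 in rat 7. The lead of rat 5 in this sum was therefore not shared by most proximal models. ENSRNOG00000029701 had 0.341 CPM in rat 5, below the median of 0.367 CPM in the others. The total of rat 5, 70449854 counts, lay between those of the other rats, and its part in the excess was not tested.

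**Figure D4:**
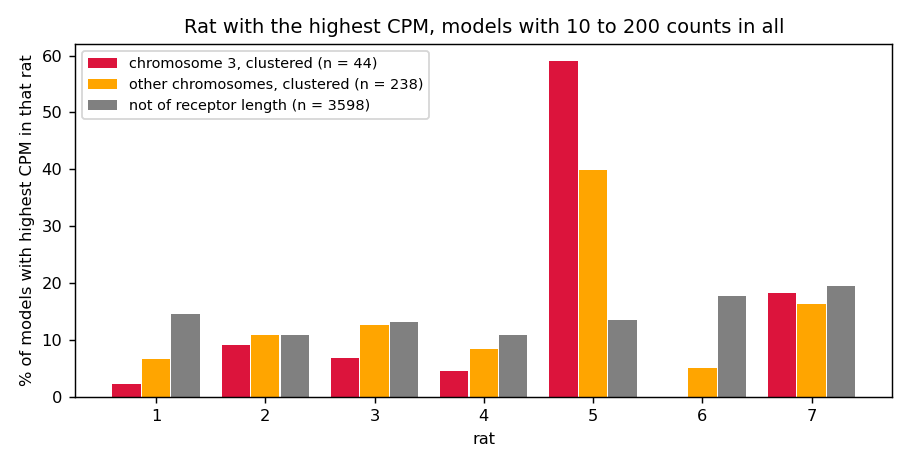
Share of models whose highest CPM lies in each rat, among models with a total of 10 to 200 counts: clustered models of chromosome 3 (red, n = 44), clustered receptor-length models elsewhere (orange, n = 238) and models of other structure (grey, n = 3598). In rat 5 the shares are 59.1%, 39.9% and 13.4%. The total includes the counts of rat 5, so that models could enter through rat 5 itself.

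Across rats the clustered models of chromosome 3 moved with those of the other chromosomes. The 796 receptor-length models in position clusters elsewhere summed to 56.2, 68.0, 75.4, 65.8, 98.2, 52.8 and 73.6 CPM in rats 1 to 7. Their sum correlated with that of the 260 clustered models of chromosome 3 (4.28, 5.86, 6.40, 5.34, 12.1, 3.48 and 6.77 CPM) at Pearson's r = 0.98 (exact permutation p = 0.000397, adjusted over 4 correlations 0.00159) and Spearman's rho = 0.96 (exact permutation p = 0.00278, adjusted 0.0111), n = 7 rats. Without rats 5 and 6, the 2 farthest from the median, r was 0.97. Both sums are divided by the same library total, and the restriction to clusters was chosen after the data were seen. Of 10 other chromosomes with at least 20 such models, 8 had their highest sum in rat 5, with sums in rat 5 of 1.01 to 3.02 times the median of the others over all 10.

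The correlation over all models of the structural rule, scattered ones included, did not pass a threshold of 0.05. Against the 889 receptor-length models on all other chromosomes, r was 0.32 (exact permutation p = 0.455, adjusted 0.607) and rho 0.07 (p = 0.906, adjusted 0.906), and r was -0.62 without the 2 farthest rats, 4 and 7. With whole counts only, r was 0.88 (exact permutation p = 0.0121, unadjusted) and passed. The sign turned with TMM factors (-0.14), DESeq2 size factors (-0.18) and a total without the 10 most abundant models (-0.08). The 93 unclustered models gave 542 CPM of that sum and the 796 clustered ones 70.0 CPM. Against the 109 intact V1R models, the sum of the 265 models gave r = 0.38 (exact permutation p = 0.392, adjusted 0.607) and rho = 0.57 (p = 0.2, adjusted 0.267), with r = 0.00 without rats 6 and 7. Without rat 5 it was 0.86 (exact permutation p = 0.0319, unadjusted), so that this value depends on 1 animal. For the 260 clustered models against intact V1R models r was 0.25 (exact permutation p = 0.609, adjusted 0.609) and rho 0.64 (p = 0.139, adjusted 0.267), and r was -0.11 without rats 6 and 7. Intact V1R models summed to 485 CPM in rat 5, between the 383 CPM of rat 6 and the 639 CPM of rat 7. Markers of main olfactory or other cell types could not be read without gene names, so that their part in these values was not tested.

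**Figure D5:**
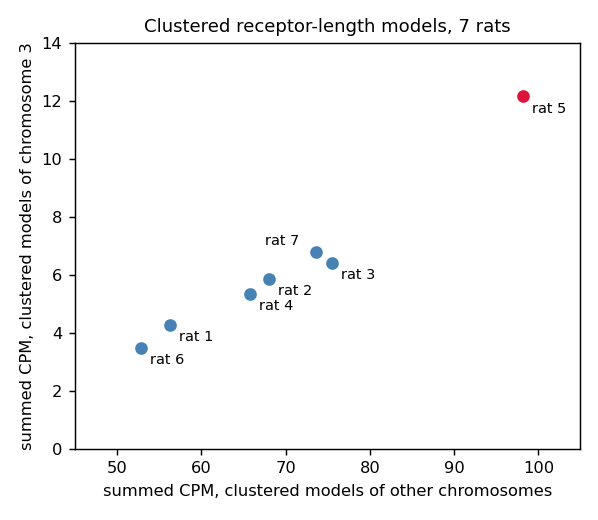
Summed CPM of the 260 clustered models of chromosome 3 against that of the 796 clustered receptor-length models of other chromosomes, 1 point per rat (the horizontal axis does not start at 0). The 7 rats lie near 1 line, from rat 6 (52.8 and 3.48 CPM) to rat 5 (98.2 and 12.1 CPM).

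The clusters differed little in average level. Mean log2(RPKM + 0.1), with its floor at -3.32, and one that compresses differences between low models, was -3.05 in the proximal, -3.14 in the central and -3.18 in the distal cluster. The proximal cluster was above the distal one by 0.13 ± 0.07 (SD, n = 7) and higher in every rat, 7 of 7 (exact permutation p by sign flips = 0.0156, two-sided, the smallest that 7 rats can give, adjusted 0.0188 over 6 level differences). This difference was 0.32 with a pseudocount of 0.01 and 0.03 with a pseudocount of 1. It was above the central one by 0.09 ± 0.06 in 6 of 7 rats (exact permutation p = 0.0312, adjusted 0.0312). The opposing rat was rat 5. With any other rat left out the exact permutation p was 0.0625 each, the smallest that 6 rats with 1 opposing can give. Those settings therefore could not keep the call, and the difference was 0.0798 to 0.112 on leaving out single rats. The call was also lost with a pseudocount of 1 (0.01, exact permutation p = 0.0625), and the difference was 0.30 with a pseudocount of 0.01. Over detected models alone, 2 proximal and 3 central, the difference was -0.98 (exact permutation p = 0.0156). Detection is a cut on these same levels, so that value compares models chosen by level and does not test the clusters. The central cluster was above the distal one by 0.04 ± 0.02 in 7 of 7 rats (exact permutation p = 0.0156, adjusted 0.0188), a call that was lost with a pseudocount of 0.01 (p = 0.609), with whole counts only (p = 0.0625) and with narrower length limits (p = 0.594). With a pseudocount of 1 that difference was 0.01. These tests cover the spread between rats and not that between models.

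Compared with pooled models of the same structure elsewhere, those of chromosome 3 were lower on average. Their mean level was -3.09 over all 265, against -2.99 for the 253 models on chromosome 1 beyond 100 Mb, a difference of -0.11 ± 0.04 (SD, n = 7). Against the 619 models on chromosomes other than 1 and 3, at -2.70, the difference was -0.39 ± 0.02. The 109 intact V1R models had a mean level of 1.40, a difference of -4.50 ± 0.22. Each difference was negative in every rat, 7 of 7 (exact permutation p by sign flips = 0.0156, two-sided, adjusted 0.0188). Of these classes 19 of 253, 77 of 619 and 102 of 109 models were detected. Single chromosomes were not tested, and not all were above chromosome 3. On chromosome 8, 0 of 130 clustered models were detected, with a sum of 0.853 CPM, against 5 of 260 and 6.32 CPM on chromosome 3. Among detected models alone, 8 on chromosome 3 and 19 on distal chromosome 1, the first difference turned to 0.66. The 8 include the 3 scattered models, whose class rests on structure without a cluster. Detection is a cut on these same levels, so detected-only differences compare models chosen by level. The sizes of these differences depended on the scale. With a pseudocount of 0.01 they were -0.31, -0.87 and -7.06 against distal chromosome 1, the other chromosomes and V1R models, and with a pseudocount of 1 they were -0.03, -0.14 and -2.02. Over detected models alone, those from the other chromosomes and from V1R models were -0.17 and -1.85. With whole counts only the difference from distal chromosome 1 was -0.06, and with clustered models only that from the other chromosomes was -0.24.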

How the data were processed

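The 7 libraries, 1 per rat, were polyA-selected and sequenced as stranded single-end reads of 100 nucleotides, per the labels' protocols. The submitters' processing notes name STAR 2.7.1a as a tool and featureCounts 1.6.5, while the file headers name featureCounts 1.6.3. Each deposited value is an estimated count for a gene model of Ensembl release 67 (RGSC3.4), per the file headers, in which a read mapped to several places counts as a fraction at each and strand is used. Near-identical receptor copies can therefore exchange reads, and models with whole counts in every rat were also analysed alone.

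CPM and RPKM were computed here from each rat's total. The 224 models of the V1R block were left out of the structural rule, and its 109 intact models were taken by their place in the files. None of the identifiers (0 matches) is paired with a symbol in the gene table of 47357 genes, so that marker lists were not run. Tests were exact permutations over rats, two-sided, at 0.05. Counts rounded to whole numbers gave tagwise dispersions in edgeR 4.0.16 under R 4.3.3 (a model with an intercept alone). DESeq2 1.42.0 size factors and TMM factors were alternatives. Other steps used Python 3.11.15, numpy 2.4.6, pandas 2.3.3 and matplotlib 3.10.9. The dispersion and permutation steps were tested on simulated data.

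Named models were the 15 highest by mean CPM, the highest of each cluster, the detected ones with extreme CVs, those next to the detection minimum or length limits, and the highest non-member in each span. Of 47 members with counts equal to another's in every rat, all had at most 3 counts and none is named. The models, clusters and lists were chosen with earlier results of these data known.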

Additional observations from a re-analysis of the deposited data

Results flagged for a closer look

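In groups of 7 rats, a value was flagged where its gap to the nearest other rat exceeded 0.568 of the whole range (Dixon's 95% critical value). Of 29 values examined, 11 were flagged, many of them overlapping sums, and chance flags about 1 in 20 groups. That rate holds only for values that were not chosen by their level in these same rats.

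Rat 5 was flagged as the highest for ENSRNOG00000006771 (2.38 CPM), ENSRNOG00000032113 (0.412 CPM), ENSRNOG00000034114 (0.367 CPM) and ENSRNOG00000030617 (0.334 CPM). These models are among the 15 highest by mean CPM, a mean that includes rat 5, so the chance rate does not hold for them. ENSRNOG00000032113, at rank 15, had 29 of its 54 counts in rat 5. Rat 5 was flagged in the same way for the summed CPM of the central cluster (9.93), the distal cluster (1.13) and all clustered models (12.1). The central and distal sums were also flagged without each cluster's highest model (8.18 and 0.901 CPM). In the central cluster that model had 1.75 CPM in rat 5 against a median of 1.65 CPM in the others. Leaving it out therefore could not remove the excess. The number of models with at least 10 counts, 20 in rat 5, was also flagged. It is given without a share over all models, and whether it is particular to these models was not tested. The only flag on another rat was ENSRNOG00000029743, highest in rat 1 at 0.218 CPM, which stands for 14 counts.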

How the results depend on the processing

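Of 176 alternative values, 145 kept their direction and side of the threshold or moved little. The count of detected models was 5 with whole counts only, 5 with narrower length limits, 5 in clusters only, 26 with a minimum of 3 counts, and 8 with each rat left out. The sum of 12.3 CPM moved to 22.5 without the 10 most abundant models in the total, 6.67 with narrower length limits and 6.32 in clusters only, with a range of 11.3 to 12.9 on leaving out single rats. The correlation with all other chromosomes passed the threshold at 0.88 with whole counts only and 0.98 in clusters only, and reversed to -0.14 with TMM factors, -0.18 with DESeq2 size factors and -0.0813 without the 10 most abundant models (0.04 to 0.68 with each rat left out). That with V1R models lay at 0.18 to 0.86 over all alternatives and at 0.21 to 0.86 on leaving out single rats. Proximal minus central was -0.98 over detected models, a set chosen by level. It lost its call at 0.0125 with a pseudocount of 1, and ranged over 0.0798 to 0.112 on leaving out single rats. Central minus distal lost its call at 0.0230 with whole counts only, 0.0225 with a pseudocount of 0.01 and 0.00669 with narrower length limits. The difference from distal chromosome 1 turned to 0.66 over detected models, again a set chosen by level. The cause of these changes was not tested, other than the smaller total or number of models that the alternative sets itself. Median variability was 42.8% with a minimum of 3 counts, 21.3% with 10 counts in every rat, and 21.1% to 24.7% with each rat left out. Clustered models highest in rat 5 numbered 26 of 44 with totals of 10 to 200 counts, totals that include rat 5 itself. Level differences were paired within rat, but no contrast between conditions was possible because all rats form 1 group. With 0 detected models in the distal cluster, no detected-only value exists for it. Below 10 counts per rat, levels of single models rest on counting error.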

Other observations

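Inside the span of the central cluster, ENSRNOG00000009399 (chr3:68696498-68735967, 12 exons, whole counts), which is not of receptor structure and was singled out after its values were seen, had 12.6 CPM in rat 1 and 0.356 to 0.770 CPM in the other 6 rats.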
